A study of Mus musculus with 3 samples.

Results

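The box H/ACA small nucleolar RNA (snoRNA) genes were taken as all genes whose symbol starts with Snora in the deposited tables, with no limit on length or count. The rule found 42 gene entries of 55536 genes. They carry 40 symbols, since Snora16a and Snora43 each have a pair of nested entries. The data are total RNA sequencing of the chromatin fraction, the RNA that stays with chromatin when nuclei are fractionated, after removal of ribosomal RNA. The cells were bone marrow-derived macrophages (BMDM), grown from bone marrow of C57BL/6J mice, and all had been exposed to Lipid A, a bacterial membrane lipid sensed by Toll-like receptor 4, at 100 ng/ml for 25 min. The 3 libraries form 1 group and are labelled biological replicates 1, 2 and 3, made from 1000, 250 and 500 ng of RNA. No unstimulated library or other fraction was analysed here, so no value below is a response to Lipid A or an enrichment in chromatin. Each library has its own biosample record, all refer to the same donor record, and age and sex were not collected. Nothing in the labels says that the replicates came from separate animals or cultures, so the spread between these samples may be technical. With 1 residual degree of freedom, the p-values of the edgeR test used below lean on a spread estimated over all genes. They rest only in part on each gene's own spread.

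H/ACA snoRNAs fold into hairpins separated by a hinge with box H and end just after a box ACA. They are cut out of introns of other genes, bound by the core proteins dyskerin (Dkc1), Nhp2, Nop10 and Gar1, and most guide dyskerin to the uridines of ribosomal or small nuclear RNA that it turns into pseudouridine. Snora73 RNAs are an exception, since they take part in the cleavage of precursor ribosomal RNA. The C/D box class (symbols Snord) guides ribose methylation, and small Cajal body RNAs (symbols Scarna) guide changes in small nuclear RNAs.

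Total expected counts were 13525994, 19230763 and 19207049 in replicates 1, 2 and 3, and 3 genes of the ribosomal DNA locus took 8.46%, 27.1% and 23.1% of them. All 10 macrophage markers had at least 10 counts in every library, with mean levels of 7.21 to 192 TPM, a unit scaled by effective length and library. Of 15 markers of T, B, neutrophil, erythroid, stromal and endothelial cells, 8 were at 0 in all libraries, none had 10 counts in every library, and the highest mean level was 0.313 TPM. Their summed level was 0.550, 1.63 and 1.95 TPM, against 862, 696 and 843 TPM for the macrophage markers. Of the stromal and endothelial markers, the collagen genes Col1a1 and Col3a1 had 0, 25 and 30 and 0, 14 and 20 counts in replicates 1, 2 and 3. Pecam1, of the same list, went the other way, with 21, 15 and 7 counts. In such bulk samples fewer cells of a type and less RNA per cell cannot be told apart.

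The 5 sequences shown here are the pair with the most counts, other members that the results below turn on, and one (Snora31) on which the deposited tables differ widely. They are given 5′ to 3′ as DNA letters from the GENCODE release M21 transcripts (mm10). Capitals mark the match to box H (ANANNA) nearest the middle, sought only in the central of 3 equal parts of the transcript. They also mark the ACA that stands 3 bases before the 3′ end.
Snora73a: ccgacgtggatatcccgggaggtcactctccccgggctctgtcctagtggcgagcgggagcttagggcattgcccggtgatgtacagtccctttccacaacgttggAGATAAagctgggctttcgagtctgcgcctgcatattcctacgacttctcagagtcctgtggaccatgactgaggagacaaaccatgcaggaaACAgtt
Snora73b: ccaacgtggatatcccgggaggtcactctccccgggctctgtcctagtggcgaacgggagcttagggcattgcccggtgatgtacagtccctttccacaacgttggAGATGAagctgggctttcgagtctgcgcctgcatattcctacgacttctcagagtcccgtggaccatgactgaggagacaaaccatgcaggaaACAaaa
Snora78: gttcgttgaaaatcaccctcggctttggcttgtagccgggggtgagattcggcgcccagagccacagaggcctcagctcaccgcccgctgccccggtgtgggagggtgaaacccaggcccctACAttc
Snora26: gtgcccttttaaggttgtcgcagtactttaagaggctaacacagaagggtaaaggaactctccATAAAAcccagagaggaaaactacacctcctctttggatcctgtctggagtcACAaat
Snora31: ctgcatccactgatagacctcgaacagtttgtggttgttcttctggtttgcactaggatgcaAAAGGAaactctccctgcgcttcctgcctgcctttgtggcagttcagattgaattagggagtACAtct

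Snora73a (chr4:132352775-132352979, minus strand) and Snora73b (chr4:132352322-132352526, minus strand) lie 248 nt apart in introns of Rcc1, a guanine nucleotide exchange factor of Ran, and of the noncoding host Snhg3. In 1 transcript of Snhg3 an exon overlaps Snora73a in part. Snora78 (chr17:24719676-24719803, minus strand) lies in an intron of the noncoding gene Snhg9 and overlaps Rps2 on the opposite strand. Snora26 (chr5:74093530-74093650, plus strand) lies within the noncoding gene Dancr, where 3 of 4 transcripts have an exon over all of it. Snora31 (chr14:75847905-75848034, plus strand) lies in an intron of Tpt1, the gene of a translationally controlled tumour protein.

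The defining letters were present in most members. An ACA at that place, with the transcript ending in ACANNN on its own strand, was found in 35 of 42 members (83.3%). It was found in 0 of 99 Snord transcripts, 2 of 9 Scarna transcripts (22.2%), 17.6% of the 1367 snoRNA-type transcripts with neither a Snora nor a Snord symbol, and 8.21% of 2876 other transcripts of the same range of lengths. A match to ANANNA in the central part, with the length divided into equal first, central and last parts, was found in 39 of 42 members (92.9%) and in 64.6% of those other transcripts. Both together were found in 33 members (78.6%) and 7.44% of the other transcripts. Snora78 and Snora65 have the ACA and no ANANNA in their central part. Snora74a has neither the ANANNA there nor the ACA at that place. Snora81 and Snora44 are also among the 7 members without the ACA at that place. These letters describe the annotated ends, since a transcript annotated a base too long or too short misses the pattern. In Snora74a, Snora28, Snora17 and the 127 nt entry of Snora43 the ACA stood 1 base nearer the 3′ end. The members were 121 to 205 nt long (median 132.5 nt) with 33.3% to 64.1% G and C (median 48.5%), and lay on 20 chromosomes, 6 of them on chromosome 4.

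The counts were concentrated in 3 members, the same in each library: Snora73b, Snora73a and Snora74a took 93.9%, 93.7% and 93.3% of the members' summed counts of 6395, 11881 and 5735 in replicates 1, 2 and 3. The remaining 39 members summed to 387, 750 and 386 counts. All members together held 0.0473%, 0.0618% and 0.0299% of a library's counts (mean 0.0463% ± 0.0160, SD, n = 3).

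Snora73b had 2648, 4640 and 2247 expected counts in replicates 1, 2 and 3. Snora73a had 1901, 5142 and 1984. In these unscaled counts replicate 2 was the highest library for both, and the other libraries were closer to each other. Snora74a, which belongs to another H/ACA family, had 1460, 1350 and 1118 counts. In CPM, the expected counts scaled by the library's total, the means were 185 ± 62.9 for Snora73b, 170 ± 86.0 for Snora73a and 78.8 ± 25.9 for Snora74a (SD, n = 3). Per kb of annotated length this was 901 CPM for Snora73b, 831 CPM for Snora73a and 402 CPM for Snora74a. By library, Snora73b was at 196, 241 and 117 CPM and Snora73a at 141, 267 and 103 CPM. Replicate 1 of Snora73a was nearer to replicate 3 in CPM as in the unscaled counts. For Snora73b it was nearer to replicate 2 in CPM but to replicate 3 in the unscaled counts, so this depends on the scaling. The totals behind CPM include the ribosomal DNA locus, at 8.46%, 27.1% and 23.1% in replicates 1, 2 and 3. The ranges over libraries of Snora73a and Snora73b overlapped, and Snora73b was the higher of the pair in replicates 1 and 3 and the lower in replicate 2. Snora74a ranged from 297 to 551 CPM per kb, which overlapped the range of Snora73a (504 to 1304) and lay below that of Snora73b (571 to 1177). Within each library it was below both.

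Snora73a and Snora73b are near-identical copies, so reads from the stretches they share have to be divided between them by the counting model. They share 198 of 205 bases (96.6%) and differ at G3A, G54A, A111G, T164C, G203A, T204A and T205A, given as the base of Snora73a, the position from the 5′ end and the base of Snora73b. Snora73a took 41.8% of the pair's counts in replicate 1 (95% interval 40.4% to 43.2%), 52.6% in replicate 2 (51.6% to 53.6%) and 46.9% in replicate 3 (45.4% to 48.4%). These exact Clopper-Pearson intervals do not overlap, but they cover counting error only and leave out the error of assigning a read to one copy. The deposited posterior standard deviation of the Snora73a count was 1.51 in replicate 1 and 1.49 in replicate 2, small beside the counts; it is the model's own value, and the division was not tested otherwise.

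The members next in CPM were far lower. Snora68 had 52.8, 239 and 76.8 counts, with replicate 2 above the others, a mean of 6.77 ± 4.88 CPM (SD, n = 3) and 51.7 CPM per kb. Snora26 had 64, 72.0 and 50 counts, a mean of 3.69 ± 1.07 CPM and 30.5 CPM per kb. Their ranges over libraries, 29.8 to 94.7 and 21.5 to 39.1 CPM per kb, overlapped.

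The next members had between 5 and 80 counts in a library. Snora81, inside the translation factor gene Eif4a2, had 46.6, 77.2 and 50.6 counts. Snora70, inside the ribosomal protein gene Rpl10, had 45.6, 39.1 and 33.2. Snora23, inside the importin gene Ipo7, had 36, 26 and 15. Per kb these were 18.9, 17.4 and 8.69 CPM, and the library ranges of Snora81 and Snora70 overlapped. Snora78 had 5, 61 and 18 counts, a spread nearly as large as its mean, at 1.49 ± 1.48 CPM. Snora5c, inside Tbrg4, had 16.8, 45.7 and 15.8 counts and Snora7a, inside Rpl32, had 17.9, 36.8 and 19.9. Both were highest in replicate 2, as was Snora9, inside the noncoding gene Snhg15, with 10.7, 34.7 and 22.8 counts. The counts of Snora21, inside Rpl23, were 16, 15 and 8, and those of Snora44, inside the noncoding gene Snhg12, were 9.92, 14.96 and 11.97.

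**Figure D1:**
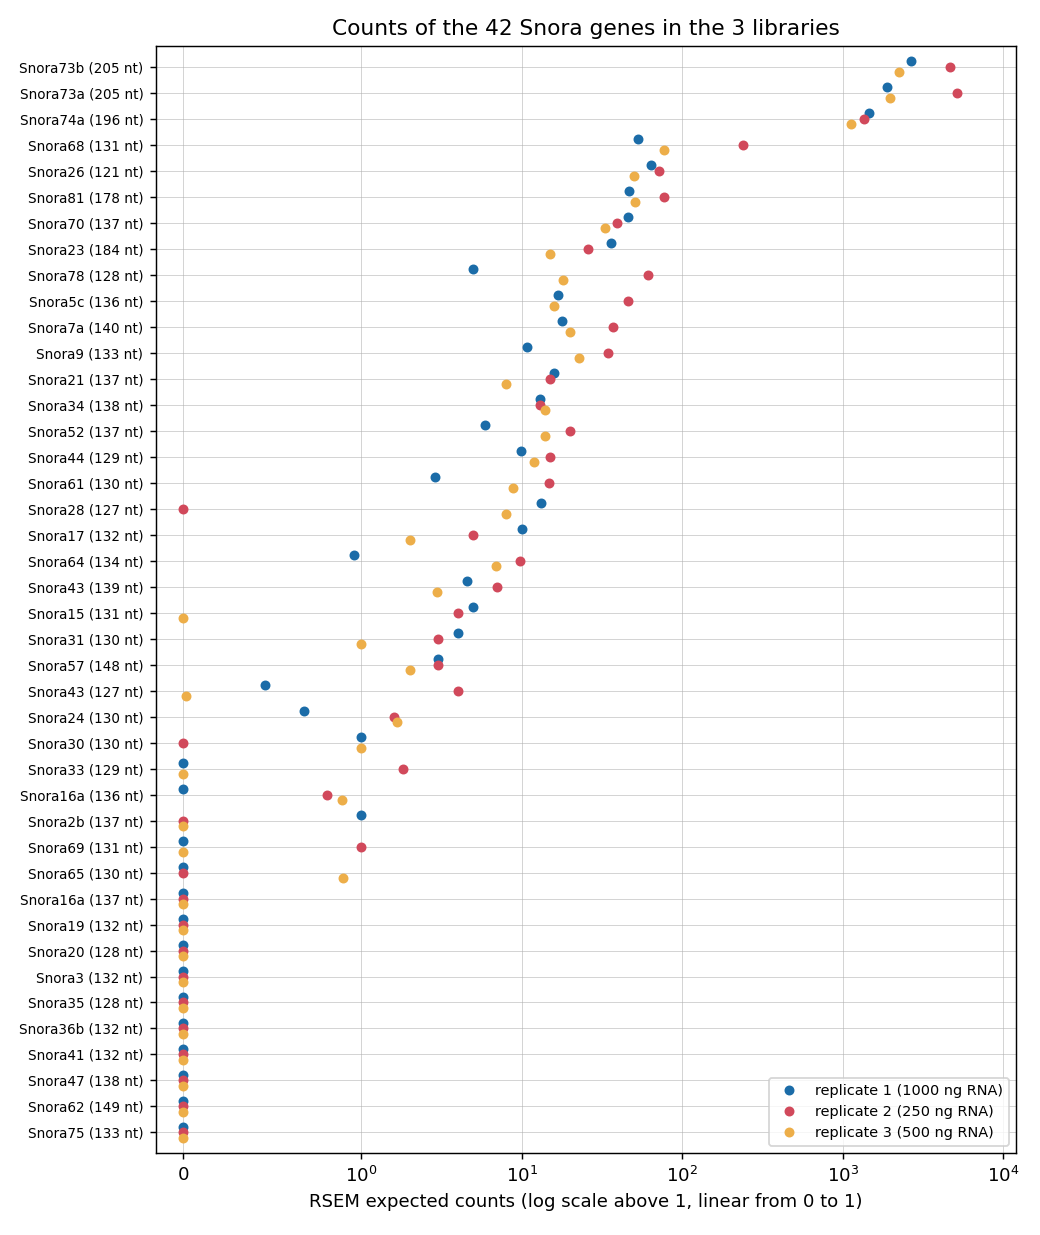
RSEM expected counts (horizontal axis, log scale above 1 and linear from 0 to 1) of the 42 Snora genes, ordered by mean CPM, with 1 point for each of the 3 libraries and the annotated length beside each name. Snora73b, Snora73a and Snora74a stand above 1000 counts in every library, and 10 members are at 0 in all 3.

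At least 10 counts in every library were reached by 12 of 42 members (28.6%), against 4 of 99 Snord genes (4.04%), 4 of 9 Scarna genes and 13887 of all 55536 genes (25.0%). At least 1 count in every library was reached by 21 members. Among the 12, replicate 2 had the highest CPM for 7 and replicate 1 for 5, and replicate 3 had the lowest CPM for 9. Over all genes with at least 10 counts in every library, replicate 2 was the highest for 23.2% and replicate 3 the lowest for 27.2%. The standard deviation of CPM as a percent of its mean ranged from 19.2% (Snora34) to 72.1% (Snora68) over the 12, with a median of 35.5%, beside a median of 20.98% over all genes with that many counts.

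Counts went with annotated length. No member is between 149 and 178 nt long, and the 5 members above that gap (Snora81, Snora23, Snora74a, Snora73a and Snora73b) all had at least 10 counts in every library, against 7 of 37 shorter members. This split was chosen after the values were seen. The median of the mean CPM was 78.8 over the 5 longer and 0.161 over the 37 shorter members. The longer ones were not all high, since Snora23 had a mean of 1.60 CPM, below Snora68 (131 nt) and Snora26 (121 nt, the shortest member). In the other classes, 0 of 94 Snord genes under 120 nt, 3 of 4 between 120 and 150 nt and the 1 longer had at least 10 counts in every library. For Scarna genes this was 0 of 2, 0 of 3 and 4 of 4. The labels give a size range of 250 to 400 nt for the libraries, above the length of every member. This does not mean that no fragment could come from a member. The RSEM effective lengths given below were above 0 for all members except Snora26, so the counting model allowed fragments no longer than those members. What the size selection contributed to the counts was not tested.

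**Figure D2:**
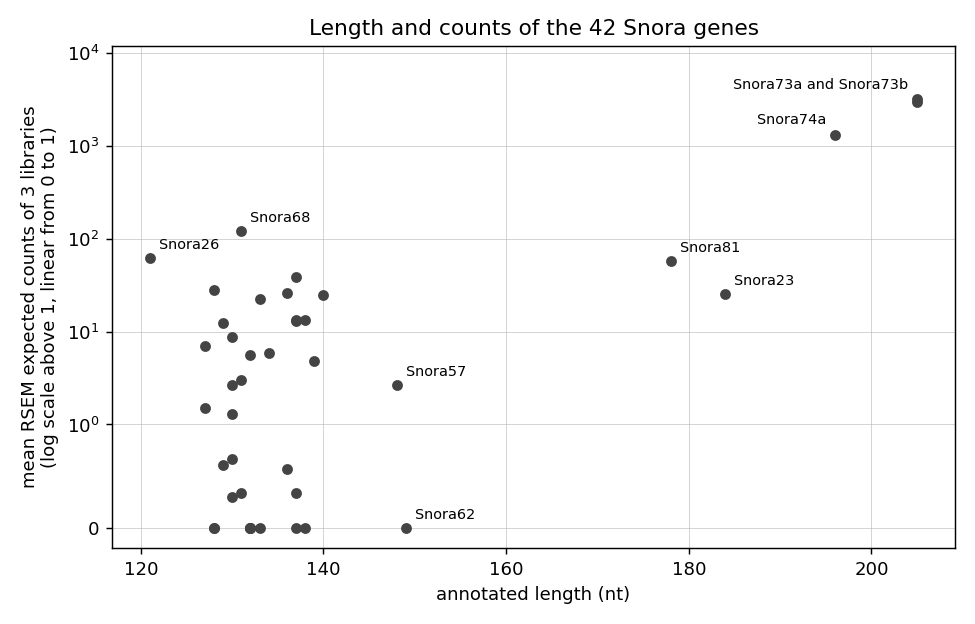
Mean RSEM expected counts of the 3 libraries (vertical axis, log scale above 1 and linear from 0 to 1) against the annotated length in nt for the 42 Snora genes, 1 point a gene. The 5 members of 178 to 205 nt all lie above 10, while the 37 members of 121 to 149 nt run from 0 to the level of Snora68.

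The 10 members at 0 in all libraries were Snora3, Snora19, Snora20, Snora35, Snora36b, Snora41, Snora47, Snora62, Snora75 and the 137 nt entry of Snora16a. They are 23.8% of the members, beside 55.9% of all genes, 94.9% of Snord genes and 44.4% of Scarna genes at 0 in all libraries. A count of 0 allows a level of up to 0.222, 0.156 and 0.156 CPM in replicates 1, 2 and 3 (3 counts of the total). That limit covers counting error alone, not the assignment of reads, and the second kind of deposited table described below exceeds it for some of these members. Of the 10 genes that hold these members, 9 had at least 10 counts in every library. An example is Ncl, the nucleolin gene, which had 1421, 1719 and 1700 counts while Snora75 inside it had 0. The exception was Htr2c, a serotonin receptor gene known from brain, which was at 0 in all 3 libraries, as was Snora35 within it. The members at 0 and the others named below that are not among the highest 12 were chosen after their values were seen.

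The deposited tables differed widely for some of the short members. The second kind of table, whose columns are those that kallisto writes, gave a higher mean count than the RSEM table for 38 of 42 members, a lower one for 2 and the same for 2. Its totals were higher too, at 1.54, 1.74 and 1.67 times the RSEM totals in replicates 1, 2 and 3, and it gave the higher mean for 99.0% of the 14922 genes with a mean of at least 10 RSEM counts, with a median ratio of 1.67. The members' share of all counts was lower in it, at 0.0362%. With it, 27 members had at least 10 counts in every library. The ratio of the means was 1.11 to 4.65 (median 1.17) for the 5 long members and 1.31 to 8.18 (median 2.08) for the 11 short members with a mean of at least 10 RSEM counts. The long members' median thus lay below that of all genes and the short members' above it. Snora31 had 4, 3 and 1 RSEM counts and 277, 269 and 296 kallisto-type counts. Snora30, inside Srcap, had 1, 0 and 1 against 44, 76 and 55, and Snora2b, inside Kansl2, had 1, 0 and 0 against 45, 45 and 35.9. Snora7a had 107, 291 and 212 kallisto-type counts, the largest ratio (8.18) among members with a mean of at least 10. Of the 10 members at 0, 4 had a mean of at least 10 in the second table, with 30, 25 and 28 for Snora41 and 30, 31 and 20 for Snora62. Snora35 was at 0 in both tables. The order of the first 3 members was the same in both.

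**Figure D3:**
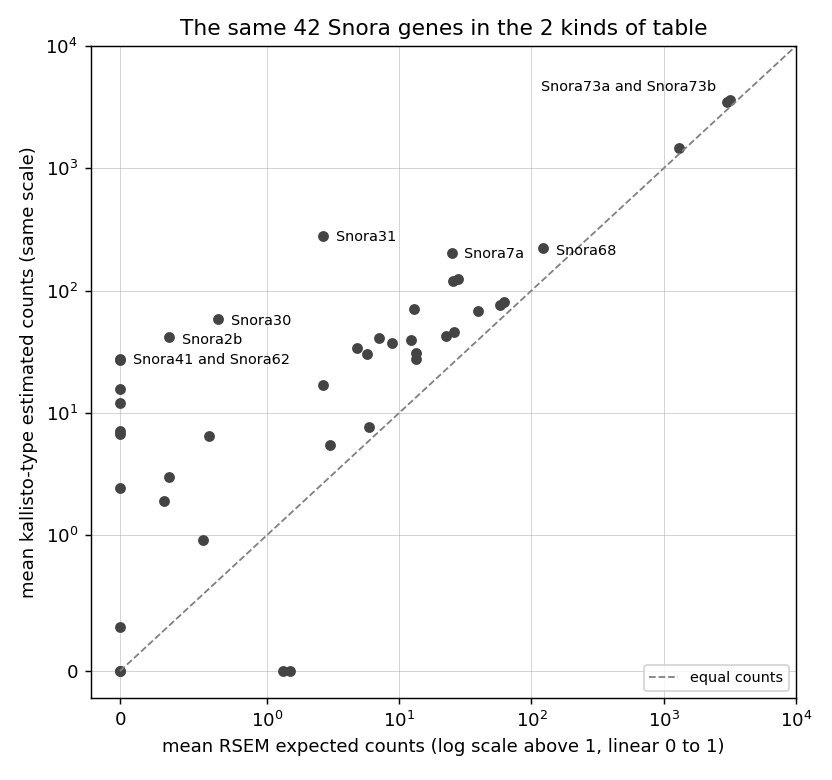
Mean kallisto-type estimated counts (vertical axis) against mean RSEM expected counts (horizontal axis) for the 42 Snora genes, 1 point a gene, both axes on a log scale above 1 and linear from 0 to 1, with a dashed line at equal counts. The Snora73 pair lies near the line, while Snora31, Snora30, Snora2b and Snora7a lie far above it.

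Effective length, the number of start positions a fragment can have, sets how a count turns into TPM. In the RSEM tables it was 0 to 32.2, 22.2 and 22.9 nt for the members in replicates 1, 2 and 3, and at most 6.09, 4.43 and 4.49 nt for the 37 shorter ones. In the second tables it was 18.2 to 60.0 nt. The mean RSEM level of Snora68 (effective length 2.08, 1.62 and 1.62 nt) was 3191 TPM, above the 2891 TPM of Snora74a (26.9, 18.5 and 19.0 nt), although Snora74a had the higher CPM per kb in every library. Snora26, with an effective length of 0, was listed at 0 TPM in all libraries despite its 64, 72.0 and 50 counts. The members held 1.68%, 3.48% and 1.74% of the TPM in replicates 1, 2 and 3, far above their share of counts. Levels of the members are therefore compared here in CPM per kb of annotated length. That scale takes no account of effective length, which differed widely between the long and the short members.

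Reads can also be shared with other transcripts. For 22 members a transcript that overlaps the same place held at least 95% identical sequence over at least 80% of the member, and for 15 members such a copy was annotated elsewhere, most often as a snoRNA gene without a Snora symbol. An exon of a host transcript covered 19 members whole. Snora28 shows how large such transcripts can be: its 13.3, 0 and 7.94 counts stood beside 2107, 1480 and 1476 counts on the retained-intron transcripts of Eif5 that contain it. For such members the counts depend on how reads were divided, which was not tested.

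Of the 42 members, 38 lie inside a gene on the same strand. By annotated gene type, 29 of them lie in protein-coding genes and 9 only in genes of other types. Those 9 include Snora15, inside Cct6a, a gene that the annotation types as a processed transcript. Snora74a is among the 29 through Gm28285, which was at 0 in all 3 libraries. Ribosomal protein genes hold 11 members and the translation factor genes Eif4a2, Eif5, Eif3a and Eef1b2 hold 4. The 4 members without such a gene are Snora17, both entries of Snora43 and Snora57, which lies opposite Lbhd1. Of 36 distinct host genes, 30 had at least 10 counts in every library. The counts of a member and of its host could be far apart: Rcc1 had 34, 109 and 67 counts and Snhg3 7.85, 22.8 and 8.47 beside the far higher counts of the Snora73 pair, and Eif5 had 5476, 4983 and 4856 beside those of Snora28. Tpt1, which holds Snora31, had 869, 688 and 737 counts. Snhg9, which holds Snora78, was at 0 in all 3 libraries.

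The RNA amount was the only labelled difference between the libraries, and it was tested as a log2 change per doubling of RNA. Each amount is 1 library, so RNA amount and any other difference between the replicates cannot be told apart. The share of the ribosomal DNA locus, the depth and the summed level of markers of other cell types also differed (replicate 1 had the lowest value of each). So did the RSEM effective length of the Snora73 pair, at 32.2 nt in replicate 1 against 22.2 and 22.9 nt in replicates 2 and 3. The part of these differences in the results was not tested. The filter on low counts kept 16 members. With edgeR's quasi-likelihood test and Benjamini-Hochberg adjustment over 15077 genes, 3 of the 16 fell with more RNA, beside 1.41% of all genes tested, and 0 rose, beside 2.98%. In either direction 4.38% of all genes were called. At an unadjusted p under 0.05 there were 4 members, the fourth being Snora9. The share of all genes at that unadjusted threshold is not given, here or below, so such counts have no background to be read against. The estimates were lower with more RNA for 10 members and higher for 6, with a median of -0.26 beside -0.01 over all genes, of which 51.6% had a lower estimate.

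Snora78 fell by 1.70 per doubling (SE 0.33, adjusted p = 0.0063, edgeR). Its levels of 0.370, 3.17 and 0.937 CPM at 1000, 250 and 500 ng followed the order of the amounts, and the estimate was -1.75 without replicate 1 and -1.39 without replicate 2, with no test. Its lowest library had only 5 counts. Without knowledge of the strand setting, its reads and those of Rps2 on the other strand cannot be told apart. Rps2 itself, a ribosomal protein gene, had 132, 291 and 265 counts and an estimate of -0.44 that was not called.

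Snora68 fell by 0.99 per doubling (SE 0.21, adjusted p = 0.011, edgeR), with 3.90, 12.4 and 3.999 CPM. The difference lay in replicate 2: without it the estimate was -0.23, and without replicate 1 it was -1.67, both with no test.

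Snora73a fell by 0.59 per doubling (SE 0.16, adjusted p = 0.039, edgeR). Its levels of 141, 267 and 103 CPM were not ordered by the amounts, and without replicate 2 the estimate turned to 0.25, with no test. Snora73b, its near-identical copy, had an estimate of -0.28 (SE 0.15, adjusted p = 0.32, edgeR), and 0.54 without replicate 2. Whether the 2 copies differed in this was not tested. Rcc1 and Snhg3 each had an estimate of -0.71 and were not called. Snora74a had 108, 70.2 and 58.2 CPM, with replicate 1 the highest, and an estimate of 0.19 (SE 0.14, adjusted p = 0.48, edgeR). AC121821.1, a noncoding gene that holds it, had 114, 244 and 181 counts and an estimate of -0.42 (adjusted p = 0.18, edgeR).

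Other tools called fewer members. DESeq2 called 0 of the 4 members to which it gave an adjusted p, beside 1.22% of 8311 genes called lower, with 1 of the 4 at an unadjusted p under 0.05. Among the 28 members to which it gave a p alone, 2 were under 0.05. The estimates hardly moved: Snora68 was at -0.97 (adjusted p = 0.054, DESeq2) and Snora73a at -0.58 (adjusted p = 0.50, DESeq2). Their SE were larger, at 0.32 for Snora68 and 0.44 for Snora73a, against 0.21 and 0.16 with edgeR. Snora78 was given no adjusted p. The same edgeR test on kallisto-type counts called Snora78 alone, at -1.20 (SE 0.20, adjusted p = 0.0085), as the 1 of 29 members tested, beside 0.601% of 24300 genes called lower. There Snora68 was at -0.62 (adjusted p = 0.081, edgeR) and Snora73a at -0.61 (adjusted p = 0.066, edgeR).

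**Figure D4:**
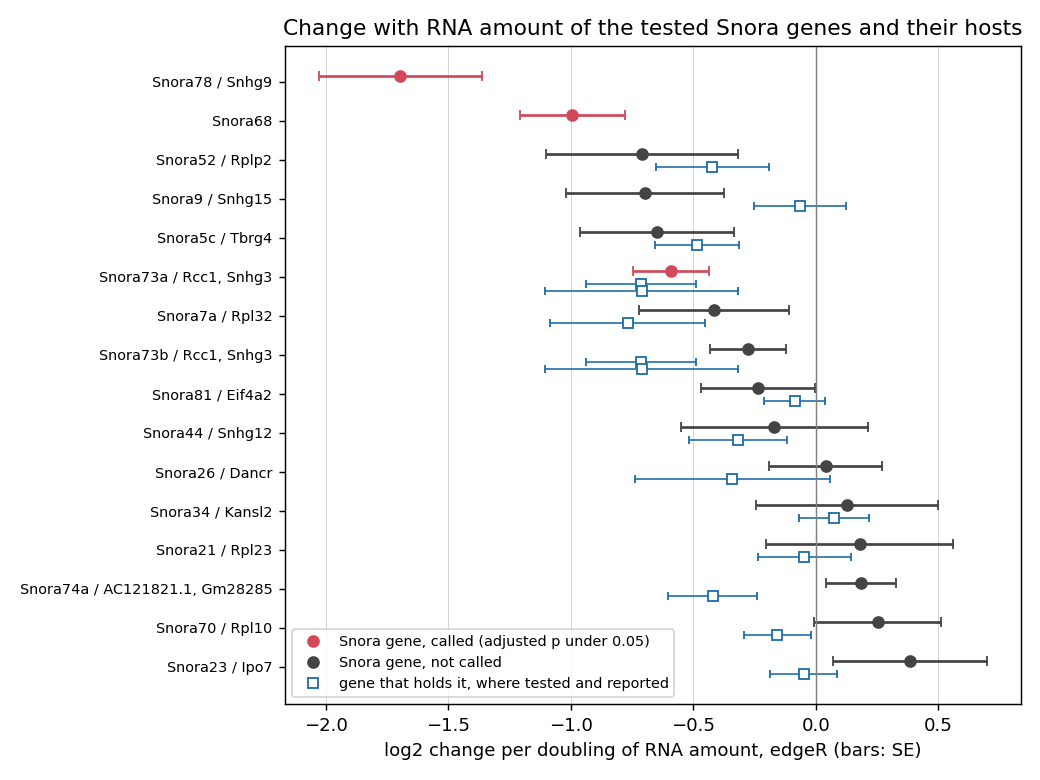
Log2 change per doubling of RNA amount (horizontal axis, edgeR, bars are SE) for the 16 tested Snora genes (filled points, red where the adjusted p is under 0.05) and for the genes that hold them (open squares, where tested and reported). Snora78, Snora68 and Snora73a are the called members, at -1.70, -0.99 and -0.59, and none of the hosts drawn was called.

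Of the 33 host genes tested, 1 was called, Rpl12, which holds Snora65 and fell by 0.55 per doubling (SE 0.15, adjusted p = 0.048, edgeR) with 205, 524 and 370 counts. This is 3.03% of the hosts tested, near the 4.38% of all genes. The hosts' median was -0.22, beside -0.01 over all genes. Snora65 itself had 0, 0 and 0.9 counts and was not tested.

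The genes of the H/ACA particle and of pseudouridine synthesis were measured alongside, as a list of 25. Dkc1, the pseudouridine synthase, had 188, 143 and 158 counts and 6.62 ± 1.23 TPM (SD, n = 3). Nhp2, a core protein that binds the guide, had 113, 67 and 56 counts and 5.23 ± 2.81 TPM, highest in replicate 1. Gar1, the core protein that joins last, had 15, 27 and 21 counts and 2.64 ± 1.03 TPM. Nop10, the small core protein, had only 4, 1 and 8 counts. The assembly factors Naf1 and Shq1 were at 0.880 ± 0.098 and 2.31 ± 0.62 TPM. Nolc1, a chaperone of snoRNA particles in the nucleolus and Cajal body, was at 3.07 ± 1.09 TPM, and Wrap53, which brings RNAs to the Cajal body, at 1.17 ± 0.49 TPM. Parn, a nuclease that trims the 3′ ends of H/ACA RNAs, was at 7.70 ± 0.41 TPM. The telomerase RNA Terc, itself an H/ACA RNA, had 11, 15 and 13 counts (3.09 ± 0.27 TPM), and Tert had 0, 2 and 3 counts.

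None of the 23 list members tested was called with RNA amount by edgeR, beside 4.38% of all genes, with 3 (Nhp2, Nolc1 and Tcof1) at an unadjusted p under 0.05. DESeq2 called 0 of the 12 to which it gave an adjusted p, beside 362 of 8311 genes called, with 0 at an unadjusted p under 0.05. By edgeR, 17 estimates were lower with more RNA and 6 higher, beside 51.6% lower over all genes, and the median was -0.14, beside -0.01 over all genes. The estimates ranged on both sides of 0 among the core proteins, with 0.33 for Dkc1, 0.52 for Nhp2 and -0.30 for Gar1.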

How the data were processed

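Chromatin-fraction total RNA of Lipid A-stimulated macrophages was measured in 3 libraries of 1 group. The authors deposited, per library, a gene table with expected counts, TPM, gene and effective lengths and posterior standard deviations, whose columns are those of RSEM, per the file headers. A second deposited table per transcript holds estimated counts and TPM under kallisto's column names, per the file headers, and was summed per gene. The tables refer to mm10 and GENCODE release M21, per the deposited readme files. Not given in the sources used here are the aligner, versions, read filters and strand setting. All 55536 genes were found in the M21 annotation, and 86 of them are not in the second tables. The other 26345 entries are tRNA and 97 spike-in entries, with 1.53%, 0.357% and 0.308% of the counts. They stayed in the totals behind CPM and out of the tests.

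Expected counts were rounded to whole numbers and tested with edgeR 4.0.16 in R 4.3.3 (TMM, filterByExpr, quasi-likelihood F test, Benjamini-Hochberg over all genes tested, adjusted p under 0.05) against log2 of the RNA amount, which leaves 1 residual degree of freedom. The SE came from the estimate and the F statistic. TMM factors were 1.12, 0.930 and 0.962. DESeq2 1.42.0, RLE factors, no count filter, kallisto-type counts and leaving out the ribosomal DNA locus genes Gm26917, Gm42418 and CT010467.1 or 1 replicate were alternatives. Sequence, ends and hosts came from the M21 transcripts, identity from Biopython 1.88 and copies from BLAST 2.17.0. Total counts were 13525994 to 19230763, so that 3 counts were 0.156 to 0.222 CPM.

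The members, lists and tests were chosen with earlier results of these data known. Members named were the 12 highest by mean CPM, the called ones (at most 5 in each direction), the 3 with the largest SD over mean among those with at least 10 counts in every library, the 5 with at least 10 mean counts and the largest ratio between the tables, entries of the same symbol root, and the genes holding these. Named list genes were fixed by symbol. Other members were named after their values were seen. The result for 1 host gene is not reported here.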

Additional observations from a re-analysis of the deposited data

How the results depend on the processing

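The count of called members stayed at 3 with RLE size factors, with no count filter and without the ribosomal DNA locus genes, and was 0 with DESeq2 and 1 on kallisto-type counts. With no count filter the 3 were of 32 members tested, and 1181 of 24386 genes were called. In the main test they were of 16 members, and 661 of 15077 genes were called. No count of calls can be given with 1 replicate left out, since no residual degree of freedom remains. The called H/ACA particle genes stayed at 0 under all of these alternatives. Members with counts in every library were 12 at a minimum of 10, 21 at a minimum of 1, 5 at a minimum of 50 and 27 on kallisto-type counts, and 12 to 15 with 1 replicate left out. The share of counts, 0.0463%, was 0.0386% to 0.0545% with 1 replicate left out, 0.0362% on kallisto-type counts and 0.0584% without the ribosomal DNA locus genes. For the 14 named members, the other settings left 55 estimates of the change with RNA amount on the same side of the threshold and the same side of 0, took 4 calls away (Snora68 and Snora73a, each with DESeq2 and on kallisto-type counts) and turned 1: Snora21, at 0.18, was -0.050 on kallisto-type counts. DESeq2 gave no adjusted p for 10 of the 14, which are not counted here. With 1 replicate left out, 11 estimates turned their sign, 5 without replicate 1 and 6 without replicate 2, and the cause was not tested. The lowest and highest values were -0.87 and 1.20 for Snora21, -0.80 and 1.51 for Snora23, -0.57 and 0.65 for Snora26, -0.34 and 0.041 for Snora44, -1.51 and 0.37 for Snora5c, -0.28 and 0.77 for Snora70, -1.42 and 0.25 for Snora73a, -1.09 and 0.54 for Snora73b, -0.32 and 0.69 for Snora74a, -0.90 and 0.15 for Snora7a and -0.63 and 0.19 for Snora81. Replicate 3 has the middle amount and little weight in the slope, so leaving it out is no check of the estimates. No paired analysis was possible because the libraries form 1 group. By counting error alone a member with 0 RSEM counts may have had up to 0.156 to 0.222 CPM. The division of reads is not part of that limit, and in the second kind of table Snora41, at 0 in the first, was at 1.44, 0.749 and 0.871 CPM. By edgeR's filter, 26 of the 42 members had too few counts to be tested.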
